A study of Mus musculus with 10 samples.

Results

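The mRNA levels of p53 target and DNA damage genes were followed in primary mouse keratinocytes. The genes were taken from a list of 33 symbols, chosen by name with earlier results of these data known, and 30 of them had at least 1 probe set annotated to that single symbol, with 57 probe sets in all, out of 18194 genes so measured. The other 3, Trp53, Bax and Gdf15, are not analysed here. Per the labels, all cells were keratinocytes of newborn FVB mice (the methods name this strain for the wild type mice), measured on 10 Affymetrix expression arrays of 4 conditions. Undifferentiated cells were held at 0.05 mM calcium (2 arrays). Differentiated cells had been at 0.4 mM calcium for 2 days (4 arrays). A-C/EBP cells were differentiated in the same calcium and expressed A-C/EBP, a dominant negative protein that blocks DNA binding of the C/EBP transcription factors, switched on in cells of transgenic mice by withdrawing doxycycline (2 arrays). Whether the differentiated controls carried the transgene is not given in the sources used here. 5-AZA cells were differentiated in the same calcium and treated with 1 µM 5-azacytidine, a cytidine analogue that enters nucleic acids and blocks DNA methylation (2 arrays). The labels and the methods differ on when 5-AZA was added, a day into culture in the labels and within hours of seeding in the methods.

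The transcription factor p53 is held low by Mdm2, which marks it for degradation and is itself a p53 target. DNA damage activates the kinases Atm and Chek2, p53 accumulates, and it raises genes that stop the cell cycle, repair DNA or kill the cell. 5-azacytidine traps DNA methyltransferases on DNA and can in this way damage it, which is why these genes bear on cells treated with the drug.

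Levels are RMA log2 values, so a difference of 1 is a change of 2-fold, and each gene is the average of its probe sets. Level differences between genes are not compared, since probe sets differ in brightness. The words rose and fell are kept for genes with a limma p, adjusted over all 18194 genes, under 0.05. The sources used here do not say whether replicates came from separate cultures or animals, so the p-values reflect only how far these arrays differ among themselves, which may be technical. In bulk RNA, a change in the share of a cell type and a change in the RNA per cell cannot be told apart. The median of the probe sets was 4.64 to 4.78 per array. The keratins Krt5 and Krt14 were high in all 10 arrays (12.7 to 13.9 and 11.3 to 12.1). So was the melanocyte enzyme Dct (9.96 to 11.3). Of the listed immune cell genes, Ptprc was at 3.54 to 3.91, and Cd3g, Cd207, Itgam and Cd74 were at most 4.63. Cd3e (5.39 to 5.81) and Csf1r (6.25 to 7.49) were above the median in every array. The fibroblast genes Vim (8.12 to 10.8) and Col1a1 (6.19 to 8.36) were above it as well, while Lum was at 3.21 to 3.85. The arrays also differed technically. The mean of the hybridization controls was 11.3 in A-C/EBP replicate 2 and 9.03 to 10.6 in the others, and the highest value of any probe set was lowest in differentiated replicate 2.

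The first comparison asked whether 5-AZA triggers a damage response. None of the 30 genes rose with 5-AZA. In limma, 0 rose and 0 fell against differentiated cells, where 0.286% of all genes passed, 0.17% higher and 0.115% lower. At an unadjusted p under 0.05, 0 genes were higher and 5 were lower, namely Gadd45a, Gadd45b, Pmaip1, Eda2r and Ddb2, against 6.01% higher and 3.08% lower among all genes. The methods name a t-test but do not describe its use on single genes between arrays. Applied here to each gene (called the methods' t-test below), it put 4 past the unadjusted threshold, 4 lower and 0 higher. Among all genes 2.12% were lower and 4.51% higher by it, and 0 of the 30 genes passed after adjustment. The 95% interval of the log2 fold change, each gene taken on its own, ended under 0.5 for 30 of 30 genes, and its highest upper end was 0.45, for the transcription factor Foxo3. The interval lay wholly within 0.5 of zero for 13 of them. These intervals are from the main fit and were not recomputed under the alternatives described below. In those, the log2 difference of these genes reached at most 0.28, for Foxo3. How many of all genes had an upper end under 0.5 was not counted.

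Among the regulators, Mdm2, the clearest feedback target of p53, had levels of 7.50 and 7.38 in the 5-AZA arrays and 7.81, 7.43, 7.85 and 7.66 in the differentiated arrays. The groups overlapped, and the log2 difference was -0.25 ± 0.14 (SE, interval -0.55 to 0.06, limma adjusted p = 0.649). Its 3 probe sets gave -0.45, -0.25 and -0.04, the last from the dimmest of them. The kinases Atm and Chek2 differed by 0.03 and 0.11, and did not pass.

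Cdkn1a, the p21 cell cycle inhibitor and the best known p53 target, is not on the list of 33 and was read as a reference. It stood at 11.67 and 11.57 in the 5-AZA arrays and at 11.49, 11.19, 11.49 and 11.68 in differentiated cells. These values overlapped, with a log2 difference of 0.16 ± 0.13 (SE, interval -0.14 to 0.45, limma adjusted p = 0.795). Ccng1, the cyclin G1 gene and another direct target, differed by -0.06 with an interval of -0.33 to 0.22.

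Of the 8 growth arrest and feedback genes, 8 were below zero with 5-AZA, where 60.5% of all genes were above it. Their median was -0.23. Gadd45a encodes a stress protein that stops the cycle at its late checkpoint. Its level was 7.43 and 7.76 in the 5-AZA arrays and 8.19, 8.36, 8.79 and 8.29 in differentiated ones. Both 5-AZA arrays lay below all differentiated arrays, by -0.82 ± 0.24 (SE) in the mean, without passing the test (limma adjusted p = 0.284). Its relative Gadd45b was at 8.23 and 8.12 with 5-AZA and at 9.19, 9.27, 8.54 and 8.99 in differentiated cells. These groups were apart as well, with a difference of -0.82 ± 0.19 (SE, limma adjusted p = 0.156). Its 3 probe sets did not move alike, at -1.20, -1.10 and -0.17. Its adjusted p ranged from 0.0135 to 0.724 over the alternatives and was under 0.05 in several, among them the omission of differentiated replicate 3 and the brightest probe set alone.

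Of the 11 apoptosis genes, 9 were below zero and 2 above. Pmaip1, the gene of the BH3-only protein Noxa, was at 11.15 and 10.80 in the 5-AZA arrays and at 11.90, 11.52, 11.60 and 11.63 in differentiated ones. The 5-AZA arrays were lower throughout, by -0.69 ± 0.15 (SE, limma adjusted p = 0.13). Eda2r, a member of the TNF receptor family, read 7.04 and 6.90 against 7.67, 7.21, 7.74 and 7.29, a difference of -0.50 ± 0.16 (SE, limma adjusted p = 0.348). Bbc3, the gene of the BH3-only protein Puma, differed by -0.18, the death receptor Fas by -0.12 and Perp, a desmosome component and p53 target, by 0.08. None of these 3 was near the threshold and their arrays overlapped.

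Of the 4 repair and nucleotide supply genes, Ddb2, which recognises ultraviolet damage in DNA, was at 6.33 and 6.34 with 5-AZA and at 6.95, 6.94, 6.83 and 6.62 in differentiated cells. No array overlapped, and the difference was -0.50 ± 0.12 (SE, limma adjusted p = 0.156). After adjustment Ddb2 passed in 1 alternative, a fit with same-numbered replicates as a block (limma adjusted p = 0.0306). In that fit, differentiated arrays whose numbers no other condition shares do not enter the comparison. Its partner in damage recognition Xpc differed by 0.02, and the ribonucleotide reductase subunit gene Rrm2b by -0.13. The metabolic genes Sesn1, Tigar and Ephx1 differed by 0.05, -0.06 and -0.29.

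Arrays of the 2 conditions did not overlap for 5 of the 30 genes, 5 of them lower with 5-AZA and 0 higher, where 5.15% and 11.2% of all genes were. The same 5 had means lower by over 0.5, where 2.09% of all genes did, and 0 were higher by as much, where 1.89% did. A log2 difference of 0.5 is also the threshold that the methods state for mRNA changes upon differentiation. In all 23 genes were below zero and 7 above, where 60.5% of all genes were above zero. The median log2 difference was -0.13, against 0.04 over all genes. That median depended on single arrays. Without 5-AZA replicate 2, 16 genes were below zero and the median was -0.02, without 5-AZA replicate 1 they were 22 and -0.24, and without differentiated replicate 2 they were 27 and -0.21. The mean level of the 30 genes was 8.05 and 7.86 in the 5-AZA arrays, and 8.27, 7.99, 8.17 and 8.17 in differentiated ones.

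**Figure D1:**
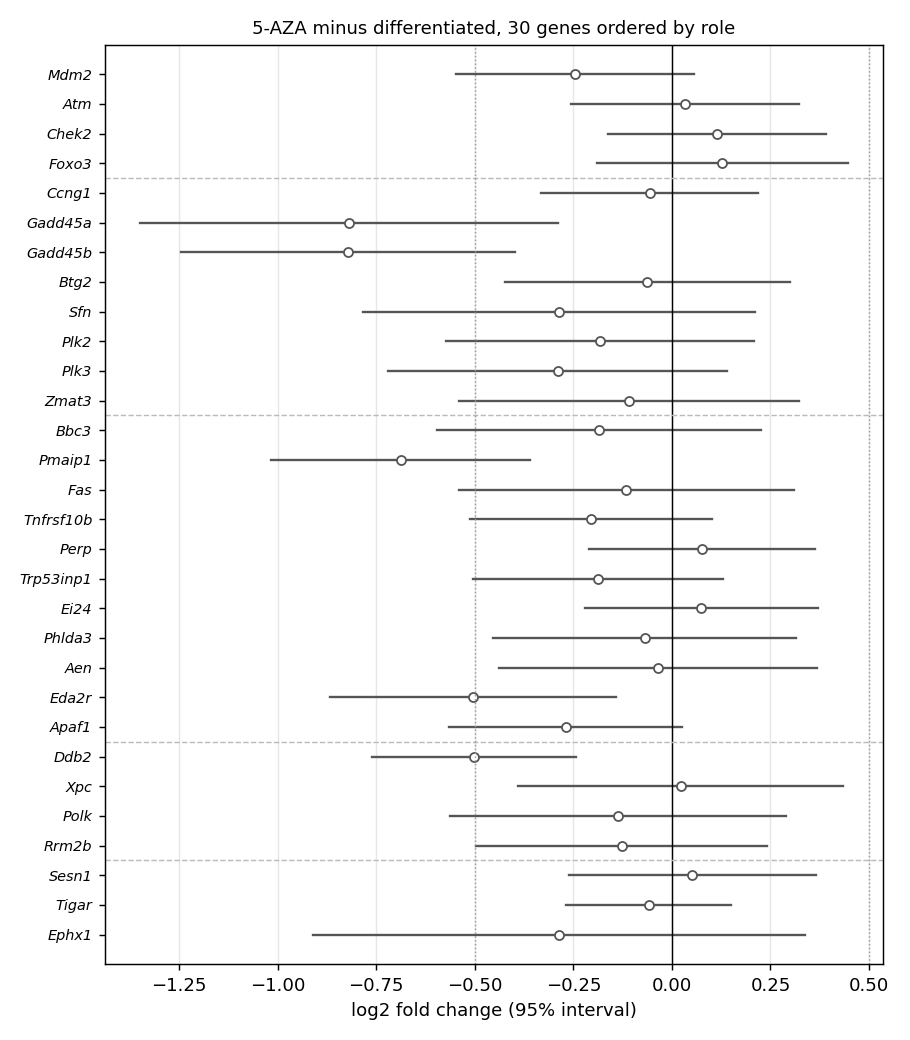
Log2 fold change (x axis) of each of the 30 genes (y axis, in order of role, with dashed lines between roles) in 5-AZA minus differentiated cells. Points are the limma estimates and lines their 95% intervals, open points did not pass at an adjusted p of 0.05, and dotted lines mark 0.5 either side of zero. All 30 intervals end to the left of 0.5, and those of Gadd45a, Gadd45b, Pmaip1, Eda2r and Ddb2 lie wholly below zero.

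Genes outside the list were read in the same way. Of 34 other p53 targets, 0 rose and 0 fell in limma with 5-AZA, 0 had an unadjusted p under 0.05, and the median was 0.03. The upper end of the interval was under 0.5 for 27 of these 34 and under 1 for 34. Of 28 further damage and repair genes 0 passed in limma, 1 had an unadjusted p under 0.05, and the median was -0.04. Of 9 germline genes that DNA methylation silences 0 passed, and 1, Tex19.1, had an unadjusted p under 0.05, at 0.47. The mean level of the fibroblast markers was 5.98 to 6.43 in the 5-AZA arrays and 5.56 to 6.21 in differentiated ones. Of these 8 markers 7 were above zero against differentiated cells, where 60.5% of all genes were. Their median was 0.23, with 0 passing the test. In limma 3 were higher at an unadjusted p under 0.05 and 0 lower, against 6.01% and 3.08% of all genes. That of the melanocyte markers was 9.07 to 9.12 in the 5-AZA arrays, and 6 of the 6 were above zero against differentiated cells with 0 passing the test. The S phase and mitosis genes were below zero for 16 of 17, with a median of -0.32 and 0 passing. The part of these lists in the values of the p53 genes was not tested.

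With A-C/EBP, 1 of the 30 genes rose and 0 fell, where 2.07% of all genes passed (1.49% higher and 0.583% lower). The gene was Btg2. Btg2 is an antiproliferative gene induced by p53 and by many growth signals. Its level was 9.81 and 10.11 in the A-C/EBP arrays and 9.22, 9.01, 9.05 and 9.14 in differentiated ones. The groups stood clear of each other, by 0.86 ± 0.16 (SE), or 1.81-fold, and its probe sets gave 0.92 and 0.80. The limma adjusted p of 0.0288 was close to the threshold. It was 0.294 without A-C/EBP replicate 2 and 0.0528, 0.0706, 0.0583 and 0.067 without differentiated replicates 1, 2, 3 and 4. It was also 0.0539 after median centring and 0.144 with the brightest probe set, while the log2 difference stayed between 0.71 and 0.92 in these.

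Another 6 genes had an unadjusted p under 0.05 with A-C/EBP without passing, so that 6 in all were higher and 1 lower, against 8.05% and 5.52% of all genes. Fas, the receptor of the death ligand Fasl, was at 6.45 and 6.48 with A-C/EBP and at 5.69, 5.47, 6.15 and 5.60 in differentiated cells, a difference of 0.74 (limma adjusted p = 0.0886). Fas passed without differentiated replicate 3. Gadd45a was at 8.79 and 9.50, of which the lower touched the highest differentiated array at 8.79, with a difference of 0.74 (limma adjusted p = 0.176). The death receptor Tnfrsf10b, Perp and Pmaip1 differed by 0.40, 0.37 and 0.36. Mdm2 differed the other way, at 7.48 and 7.19 in the A-C/EBP arrays and a difference of -0.35 (limma adjusted p = 0.266). Its 3 probe sets gave -0.56, -0.54 and 0.04, the last from the dimmest of them. In all, 6 genes were higher in both A-C/EBP arrays than in every differentiated array and 1 was lower, where 12.6% and 8.81% of all genes were, and the median over the 30 was 0.07. Means differed by over 0.5 for 3 genes, 3 higher and 0 lower, where 3.7% and 3.03% of all genes did.

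Of the 34 other p53 targets, 3 rose with A-C/EBP. They were Abhd4, a phospholipase gene (0.96, limma adjusted p = 0.01), Trp53i11 (1.58, adjusted p = 0.0104) and Bid, which carries death receptor signals to mitochondria (0.61, adjusted p = 0.0199). Cdkn1a was at 11.48 and 11.42, a difference of -0.01 (adjusted p = 0.988). Of the 28 further damage and repair genes 0 passed in limma. Among all genes 52.7% were above zero with A-C/EBP. The keratinocyte markers were above zero for 8 of 8 genes, with a median of 0.45 and 0 passing the test. The fibroblast markers were below zero for 7 of 8, with a median of -0.40 and 0 passing. Of the 17 S phase and mitosis genes 2 fell and 13 were lower at an unadjusted p under 0.05, with a median of -0.99. The part of these lists in the values of the p53 genes was not tested.

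5-AZA and A-C/EBP were then set against each other. Lower with 5-AZA were 5 of the 30 genes, Gadd45a, Gadd45b, Btg2, Pmaip1 and Ddb2, and higher were 0, where 3.19% of all genes passed, 2.06% lower and 1.13% higher. At an unadjusted p under 0.05 they were 8 lower and 0 higher, against 7.73% and 7.71% of all genes. The log2 differences were -1.55 ± 0.27 (SE) for Gadd45a, -1.23 ± 0.22 for Gadd45b, -1.05 ± 0.17 for Pmaip1, -0.92 ± 0.19 for Btg2 and -0.74 ± 0.13 for Ddb2, with limma adjusted p-values of 0.017, 0.0174, 0.012, 0.0291 and 0.0193. Gadd45b and Ddb2 were at 9.26 and 9.55, and at 7.14 and 6.997, in the A-C/EBP arrays. Pmaip1 was at 12.02 in both. With 5-AZA, Btg2 was at 9.35 and 8.74, which spans the differentiated arrays, and against those it differed by -0.06 with an interval of -0.42 to 0.30. Arrays did not overlap for 14 lower genes and 1 higher, where 18.2% and 25.2% of all genes were so. Means differed by over 0.5 for 8 lower genes and 0 higher, where 5.34% and 4.68% of all genes did.

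All 5 calls between 5-AZA and A-C/EBP were lost when replicate 2 of either condition was omitted. Without 5-AZA replicate 2 the adjusted p was 0.0661 for Gadd45a, 0.116 for Gadd45b, 0.0947 for Pmaip1, 0.162 for Btg2 and 0.111 for Ddb2. Without A-C/EBP replicate 2 it was 0.116, 0.133, 0.0715, 0.203 and 0.0719. All 5 were also lost by the methods' t-test after adjustment. Before adjustment, that t-test did not call Gadd45a or Btg2. The remaining settings that ended calls ended fewer than 5. Without 5-AZA replicate 1 the adjusted p was 0.0764 for Gadd45a, 0.0554 for Gadd45b and 0.0715 for Ddb2. It was 0.0901 for Ddb2 without A-C/EBP replicate 1 and 0.0509 for Btg2 without differentiated replicate 4. The adjusted p was 0.0727 for Btg2 with the brightest probe set, and 0.0743 for Ddb2 without probe sets that can match several transcripts. With only the compared conditions in the fit, Gadd45b alone was called.

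Outside the list, 5 of the 34 other p53 targets were lower with 5-AZA than with A-C/EBP. They were Bid at -0.74 (limma adjusted p = 0.0127), Abhd4 at -0.84 (0.0239), the lipid transfer gene Pltp at -0.68 (0.0376), Trp53i11 at -1.20 (0.0433) and the sugar reductase gene Dcxr at -1.34 (0.0488). Of the 28 damage and repair genes 0 passed in limma. Other lists moved between these conditions too, where 56.3% of all genes were higher with 5-AZA. The fibroblast markers were higher with 5-AZA for 7 of 8 genes, with a median of 0.67, and Pdgfra passed (0.58, limma adjusted p = 0.0425). The keratinocyte markers were lower for 7 of 8, with a median of -0.59 and 0 passing, and the S phase and mitosis genes were higher for 15 of 17, with a median of 0.67 and 0 passing. The part of these lists in the values of the p53 genes was not tested.

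**Figure D2:**
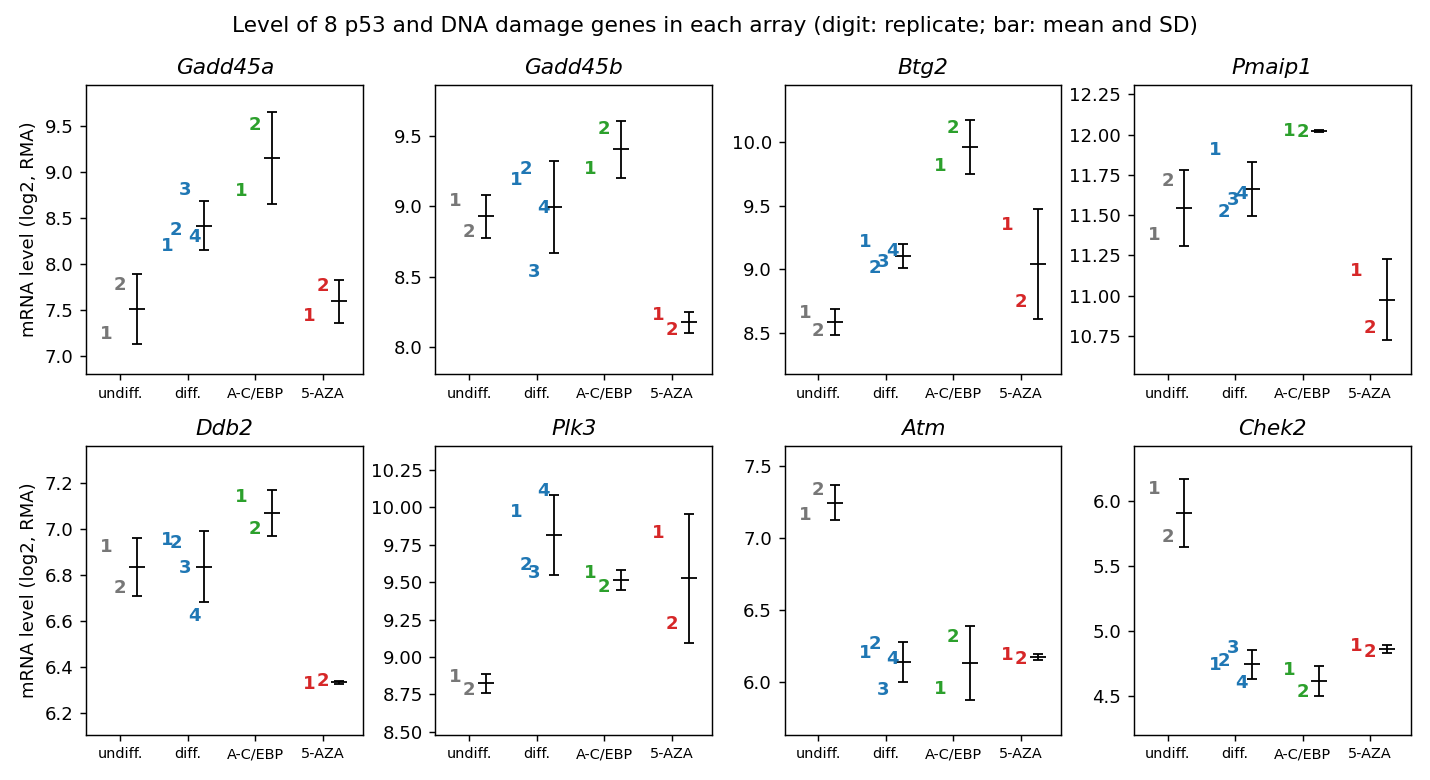
Level (y axis, RMA log2, its range set per gene) of the 8 genes that passed in at least 1 comparison, in each array of the 4 conditions (x axis). Digits are replicate numbers and bars the mean and SD. Gadd45a, Gadd45b, Btg2, Pmaip1 and Ddb2 are lower in both 5-AZA arrays than in both A-C/EBP arrays. Atm and Chek2 are highest in the undifferentiated arrays.

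In differentiation 4 of the 30 genes passed, 2 higher and 2 lower. That is close to the share over all genes, of which 15.8% passed (6.64% higher and 9.13% lower). The polo-like kinase gene Plk3 and Gadd45a rose, and the checkpoint kinase genes Atm and Chek2 fell. Plk3, a stress-responsive kinase, was at 8.87 and 8.78 in undifferentiated cells and at 9.97, 9.62, 9.56 and 10.11 in differentiated ones, a rise of 0.99 ± 0.19 (SE, limma adjusted p = 0.00589). Gadd45a was at 7.24 and 7.77 in undifferentiated cells, below every differentiated array, and rose by 0.91 ± 0.24 (SE, limma adjusted p = 0.0266). The call for Gadd45a was lost without undifferentiated replicate 1 (0.64, adjusted p = 0.277) or differentiated replicate 3 (0.78, adjusted p = 0.0513), and that for Plk3 without undifferentiated replicate 2 (0.95, adjusted p = 0.0546).

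Atm, the kinase that senses double-strand breaks, was at 7.16 and 7.33 in undifferentiated cells and at 6.20, 6.26, 5.94 and 6.16 in differentiated ones. Chek2, the kinase that Atm activates, was at 6.09 and 5.72 and then at 4.73, 4.77, 4.87 and 4.60, near the median of all probe sets. The log2 changes were -1.11 ± 0.13 (SE) and -1.16 ± 0.12 (SE), with limma adjusted p-values of 0.000358 and 0.000217. Both were called in 20 of 20 alternatives. Neither moved further with A-C/EBP or 5-AZA past the test, at 5.95 and 6.31, and 6.19 and 6.16, for Atm, and at 4.69 and 4.53, and 4.88 and 4.84, for Chek2.

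The other 26 genes did not pass in differentiation. Closest were Btg2 at 0.52 (limma adjusted p = 0.0573), the apoptosome gene Apaf1 at -0.38 (0.0854), Phlda3, an inhibitor of Akt signalling, at -0.47 (0.102), Mdm2 at 0.37 (0.108) and the 14-3-3 sigma gene Sfn at -0.60 (0.11). The 3 probe sets of Mdm2 gave 0.60, 0.49 and 0.002, the last from the dimmest of them. Arrays did not overlap for 6 higher and 6 lower genes, where 15.1% and 19% of all genes were so. The median over the 30 genes was 0.03. Cdkn1a, outside the list, rose from 10.63 and 10.45 by 0.92 ± 0.13 (SE, limma adjusted p = 0.00109).

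Of the 34 other p53 targets 3 rose and 8 fell in differentiation. Besides Cdkn1a these included Bcl2l1, the survival gene of Bcl-xL, which rose (0.95, limma adjusted p = 0.0106), and the apoptosis gene Siva1 and Dglucy, which fell (-0.86 with adjusted p = 0.000233, and -0.90 with adjusted p = 0.00163). Of the 28 further damage and repair genes 18 fell and 0 rose, with a median of -0.50, among them Brca1 at -1.07 (limma adjusted p = 0.000193), Topbp1 at -0.88 (0.000311), Tdp1 at -0.90 (0.000345) and Nbn at -1.16 (0.000366), which act in break repair, replication checkpoints and the removal of trapped topoisomerase. The genes of S phase and mitosis moved the same way, with 16 of 17 falling and a median of -2.17. Their mean level was 8.44 to 8.77 in undifferentiated cells, 6.00 to 7.08 in differentiated, 5.68 to 5.72 with A-C/EBP and 6.00 to 6.61 with 5-AZA. Of the 8 keratinocyte markers 3 fell, the basal keratin Krt5 (-0.75, limma adjusted p = 0.0291), the epidermal regulator Trp63 (-1.42, adjusted p = 0.00255) and the integrin gene Itga6 (-1.61, adjusted p = 0.00946), and the median was -0.98. The suprabasal keratins Krt1 and Krt10, usual markers of differentiation, were not higher in the cells labelled differentiated. Krt1 was at 9.18 and 10.98 in undifferentiated cells and at 9.17, 8.87, 8.38 and 8.75 in differentiated ones (limma adjusted p = 0.0669), and Krt10 differed by -1.21 (adjusted p = 0.0757). Of the markers of other cells, Thy1 (0.88, adjusted p = 0.0271) and Csf1r (0.82, adjusted p = 0.000381) rose and Tyr fell (-0.51, adjusted p = 0.0499), 1 each among fibroblast, immune and melanocyte markers. The part of all these in the changes of Plk3, Gadd45a, Atm and Chek2 was not tested.

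**Figure D3:**
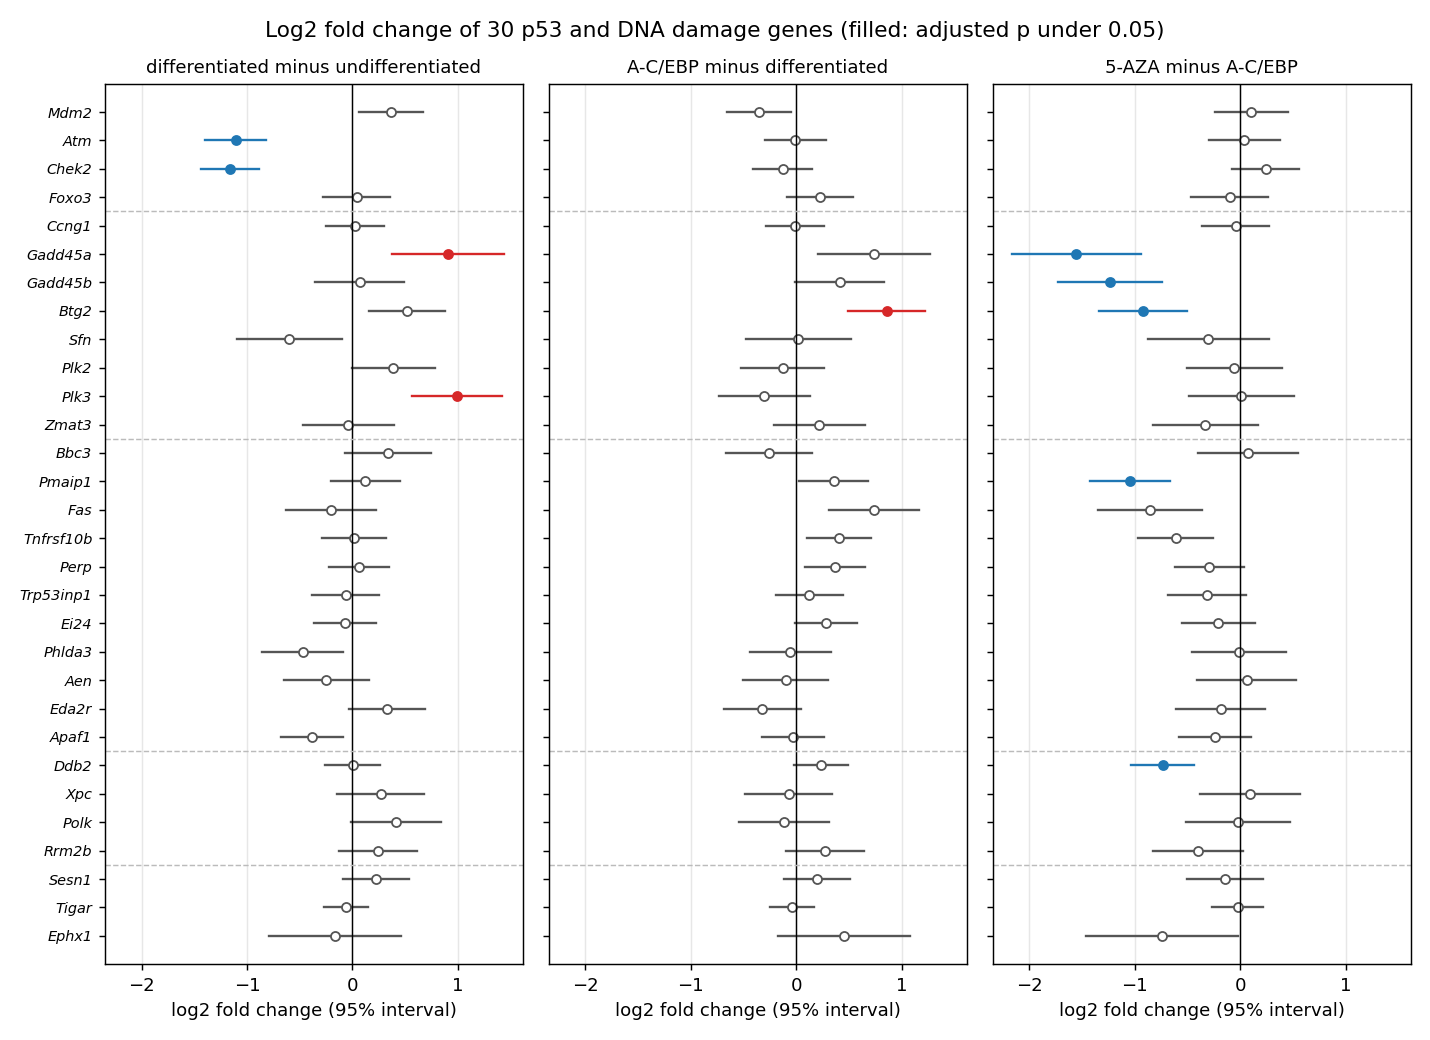
Log2 fold change (x axis) with its 95% interval for the 30 genes (y axis, by role) in 3 comparisons, differentiation on the left, A-C/EBP against differentiated cells in the middle and 5-AZA against A-C/EBP on the right. Filled points passed at a limma adjusted p of 0.05, red higher and blue lower, which are 4, 1 and 5 genes.

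**Figure D4:**
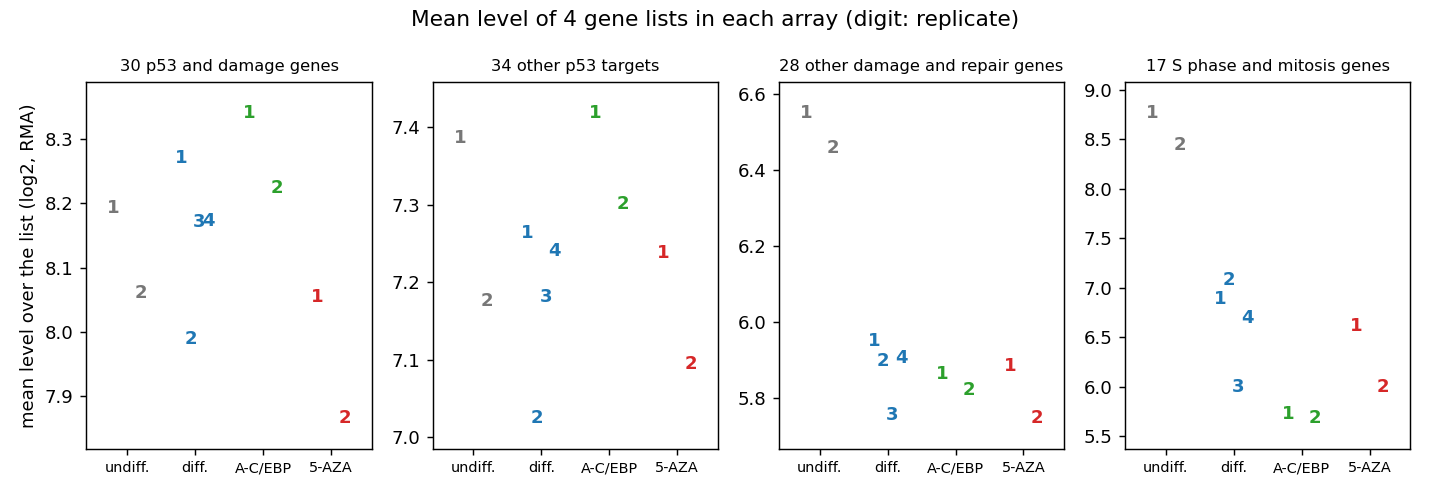
Mean level (y axis, RMA log2) over 4 lists of genes in each array of the 4 conditions (x axis), with digits for replicates. The damage and repair list and the S phase and mitosis list are highest in both undifferentiated arrays, and both 5-AZA arrays lie below the A-C/EBP arrays for the 30 p53 and damage genes.

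Promoter sequences are given for the growth arrest genes that passed in a comparison, to show what lies next to their start sites. They are the 250 bases before each gene's start in RefSeq (GRCm38.p6), on the gene's strand. Capitals mark letters that match, on either strand, the cyclic AMP response element TGACGTCA, the AP-1 site TGACTCA, the C/EBP site TTGCNNAA, the p53 half-site or the CCAAT box.
Gadd45a chr6:67037408-67037657, minus strand: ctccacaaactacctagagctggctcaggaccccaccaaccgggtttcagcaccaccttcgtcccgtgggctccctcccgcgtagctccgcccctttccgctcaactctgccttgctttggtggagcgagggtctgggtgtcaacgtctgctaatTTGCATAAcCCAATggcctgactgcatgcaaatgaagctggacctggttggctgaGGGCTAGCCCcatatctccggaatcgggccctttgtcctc
Gadd45b chr10:80929841-80930090, plus strand: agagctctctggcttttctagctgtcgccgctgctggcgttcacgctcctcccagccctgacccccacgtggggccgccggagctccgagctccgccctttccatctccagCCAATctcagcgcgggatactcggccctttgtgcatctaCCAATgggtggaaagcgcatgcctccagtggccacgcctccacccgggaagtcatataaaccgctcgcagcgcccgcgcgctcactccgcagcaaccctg
Btg2 chr1:134079156-134079405, minus strand: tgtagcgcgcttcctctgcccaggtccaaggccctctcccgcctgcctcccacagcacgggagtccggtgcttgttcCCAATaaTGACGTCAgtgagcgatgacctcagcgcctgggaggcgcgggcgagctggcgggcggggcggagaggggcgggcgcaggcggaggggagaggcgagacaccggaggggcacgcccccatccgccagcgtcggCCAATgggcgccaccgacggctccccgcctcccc
Plk3 chr4:117133964-117134213, minus strand: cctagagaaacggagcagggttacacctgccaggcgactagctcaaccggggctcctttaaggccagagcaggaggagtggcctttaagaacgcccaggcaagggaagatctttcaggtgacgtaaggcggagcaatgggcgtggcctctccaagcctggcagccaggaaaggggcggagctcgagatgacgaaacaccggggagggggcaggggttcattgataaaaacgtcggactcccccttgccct

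The Gadd45a window held a C/EBP site, a CCAAT box and a p53 half-site, that of Gadd45b 2 CCAAT boxes, and that of Btg2 a cyclic AMP response element and 2 CCAAT boxes. The Plk3 window held none of these letters. Of the 30 genes 22 had a promoter in the table. The p53 half-site was found in 7 of them (Aen, Ccng1, Ei24, Gadd45a, Mdm2, Polk and Sesn1), where 8.2% of all 27025 genes had it. The cyclic AMP response element was in 2 (Btg2 and Plk2; 1.77% of all genes), the C/EBP site in 2 (Eda2r and Gadd45a; 10.8%), the AP-1 site in 1 (Fas; 5.16%) and the CCAAT box in 14 (37.5%). A match describes letters only, and binding was not measured here.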

How the data were processed

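mRNA of 10 samples of mouse keratinocytes was measured on Affymetrix arrays. The authors made the deposited log2 values with RMA in Affymetrix Expression Console, per the submitters' processing notes, and they were used as deposited. RMA normalizes arrays to each other, so a change shared by most genes would not show. Of 45101 probe sets, 34958 had 1 symbol, 932 several and 9211 none. Those with 1 symbol were averaged per gene.

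All 10 arrays entered 1 limma fit (version 3.58.1, R 4.3.3) with a mean per condition and 6 residual degrees of freedom, and p-values were adjusted by Benjamini-Hochberg over 18194 genes. Comparisons with differentiated cells share those 4 arrays. The precision is limited by the number of arrays. The members and lists were chosen with earlier results of these data known. Outside the list, Cdkn1a and up to 4 passing genes per list and comparison with the smallest adjusted p were named, and others (Dcxr and Tex19.1, and the marker genes) after their values were seen. Titles gave the replicate numbers, since both A-C/EBP descriptions carry the number 2. The fit was tested on simulated data. Alternatives were centring, quantile normalization, the brightest probe set, omission of probe sets that can match several transcripts or of the dimmest 40% of genes, a replicate block, a variance trend with intensity, only the compared conditions, the methods' t-test, a mean difference over 0.5 and omission of each array.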

Additional observations from a re-analysis of the deposited data

Results flagged for a closer look

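The level of 3 genes in differentiated replicate 2 stood apart from the other differentiated arrays by Dixon's test. They were Phlda3 at 10.01, Aen, a p53-induced nuclease, at 7.02 and Polk, a translesion polymerase, at 6.81, each the lowest of the 4 arrays. The test was run on 31 genes, and chance flags about 1 in 20. The same array had the lowest maximum of all 10 arrays. Without it 27 of the 30 genes were below zero with 5-AZA. Its part in these values was not tested.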

How the results depend on the processing

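The number of the 30 genes called was recomputed under each alternative. For differentiation it was 4, with 7 by the methods' t-test unadjusted, 2 after its adjustment and 3 to 6 without each array in turn. With A-C/EBP it was 1, with 0 after median centring, 0 with the brightest probe set, 0 by the adjusted t-test, 3 by the unadjusted t-test, 3 by a mean difference over 0.5 and 0 to 1 without each array. With 5-AZA against differentiated cells it was 0, with 1 with the brightest probe set, 4 by the unadjusted t-test, 5 by a mean difference over 0.5 and 0 to 1 without each array. For 5-AZA against A-C/EBP it was 5, with 1 when only these conditions were fitted, 0 by the adjusted t-test, 8 by a mean difference over 0.5 and 0 to 6 without each array. The cause was not tested. Over all 18194 genes, the unadjusted t-test called 1696 higher and 2329 lower for differentiation. It called 1161 higher and 707 lower with A-C/EBP. After adjustment it called 376 higher and 488 lower for differentiation. With 1 array left in a condition, it was assumed to vary like the others. A replicate block gave 6, 4, 2 and 8 genes in the same order, with Fas, Gadd45a and Tnfrsf10b beside Btg2 for A-C/EBP, and Ddb2 and Gadd45b, both lower, for 5-AZA against differentiated cells. Over all genes it moved the calls from 1208 higher and 1662 lower to 1203 and 2032, from 271 and 106 to 504 and 269, from 31 and 21 to 213 and 185, and from 206 and 374 to 567 and 817. Numbers 3 and 4 occur only among differentiated arrays, so the block fit compared other conditions with differentiated replicates 1 and 2 alone. Its calls thus differ from the main ones in the arrays used as well. Deviations of same-numbered arrays correlated at 0.093 to 0.43. With 2 shared numbers, which nothing in the labels ties to a shared culture, the arrays were not taken as pairs. Of 120 values (30 genes in 4 comparisons), 52 changed sign in at least 1 alternative, 0 of them among the 10 called. With 2 arrays in most conditions, small differences were not detectable.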
